A study of Mus musculus and Mus musculus x Mus spretus with 14 samples.

Results

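The 3 malignant squamous lines of a panel of mouse skin cell lines were set against its 5 squamous non-malignant lines, by the phenotype given for each line, which takes 8 of the 14 miRNA arrays of the series. The malignant squamous group held B9, a carcinoma line from a Mus spretus × CBA hybrid mouse given DMBA repeatedly, E4, a single-cell clone of a lymph node metastasis in a 129/NIH hybrid mouse, and PDVC57, grown from a tumour that formed when DMBA-transformed PDV keratinocytes were injected into C57 mice. The squamous non-malignant group held 3 immortalized keratinocyte lines and 2 papilloma lines. The keratinocyte lines were C5N, a nontumorigenic clone of BALB/c MCA3D cells, C50, and NK, which immortalized spontaneously from a p53 null mouse. The papilloma lines were MSCP1 and P6, both from mice of a Mus spretus × CBA cross treated with DMBA and TPA, a carcinogen and a tumour promoter. All lines were grown with 10% foetal bovine serum, and 1 µg of total RNA of each was labelled for an Exiqon array. Each of these lines was measured on 1 array, and the labels name no separate cultures, so a p-value here measures the spread between lines. B9 comes from the same tumour as spindle lines A5 and D3, and E4 from the same tumour as spindle line H11, so that the malignant lines also differ in mouse strain, carcinogen history and clonal origin.

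miRNAs are short RNAs that lower the output of the mRNAs they pair with, chiefly through bases 2 to 8 of the miRNA, the seed. In skin, the miR-200 family and miR-205 repress Zeb1 and Zeb2, which switch off E-cadherin, and miR-203 represses p63 as keratinocytes leave the basal layer to differentiate. miR-21 is required for efficient chemical skin carcinogenesis in mice, and miR-29 represses collagens and other matrix genes.

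The miRNAs on which the comparison turns are printed by shared seed, with the seed in capitals, as RefSeq gives the mature RNA on GRCm38.p6. The miR-29 family, whose members miR-29b and miR-29a had the 2 highest differences over background, shares 1 seed. The printed miR-29a lies on the minus strand at chr6:31062673-31062694, and the printed copies of miR-29b and miR-29c lie near each other on chr1, with miR-29b at chr1:195037091-195037113.
miR-29a: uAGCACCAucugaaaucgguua
miR-29b: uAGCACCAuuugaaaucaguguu
miR-29c: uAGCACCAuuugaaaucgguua
The miR-200 family, which was lower by mean in the malignant lines without a member passing the test, comes from clusters on chromosomes 4 and 6 and has 2 seeds.
miR-200b: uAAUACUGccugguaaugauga
miR-200c: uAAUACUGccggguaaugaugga
miR-429: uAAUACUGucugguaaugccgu
miR-200a: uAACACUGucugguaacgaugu
miR-141: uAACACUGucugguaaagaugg
The miRNAs of the study's title, miR-203 on chromosome 12 and miR-205 on chromosome 1, share no seed with these or with each other.
miR-203: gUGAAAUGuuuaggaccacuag
miR-205: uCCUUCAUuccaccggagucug
miR-221 and miR-222 share a seed and lie at chrX:19146307-19146329 and chrX:19146901-19146923. miR-19b, miR-106b and let-7e are shown because the malignant lines did not overlap the non-malignant lines for them, and let-7a as the family member with the same seed that overlapped.
miR-221: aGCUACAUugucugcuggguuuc
miR-222: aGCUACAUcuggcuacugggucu
miR-19b: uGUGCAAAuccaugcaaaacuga
miR-106b: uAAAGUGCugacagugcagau
let-7e: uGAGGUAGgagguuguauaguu
let-7a: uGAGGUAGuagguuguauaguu
The others shown are miR-146a and miR-146b, which share a seed, and miR-142-3p, which stood out in 1 malignant line.
miR-146a: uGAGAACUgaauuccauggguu
miR-146b: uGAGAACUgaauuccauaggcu
miR-142-3p: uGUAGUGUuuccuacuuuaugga

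The arrays of C5N and MSCP1 stood apart, and both belong to the non-malignant group. Across mouse probes C5N correlated with the other 7 squamous arrays at r of 0.31 to 0.36. E4 and MSCP1 each correlated with the 6 arrays other than C5N at 0.80 to 0.88, so MSCP1 did not stand apart in this way. MSCP1 had the smallest spread of probe values, an SD of 0.55 against 1.09 to 1.42 on the other 7. Probes at least 1 log2 unit over the array's negative controls numbered 184, 147 and 144 in B9, E4 and PDVC57, against 129, 150, 135, 37 and 148 in C5N, C50, NK, MSCP1 and P6. U6, the small nuclear RNA of the spliceosome that is often used as a loading reference, read 12.18, 11.90 and 11.24 with probe U6-snRNA-1 in B9, E4 and PDVC57, against 6.48, 10.44, 9.58, 8.44 and 10.50 in C5N, C50, NK, MSCP1 and P6. That put this probe higher in every malignant line, by 2.69 on the log2 scale over all lines and by 1.60 without C5N and MSCP1. The second probe, U6-snRNA-2, was higher by 2.03 and, without both, by 1.13, but PDVC57 was level with C50 and P6 on it. The spike-in control probes averaged 7.79, 7.97 and 8.84 in B9, E4 and PDVC57, against 7.67, 8.78, 9.04, 7.72 and 9.02 in C5N, C50, NK, MSCP1 and P6. B9 and E4 were thus low with C5N and MSCP1. The probes h, i and j, the brightest of them, differed by -0.82, 0.25 and -0.16 over all lines and by -1.47, -1.33 and -1.53 without both, where U6 was higher. The part of these array differences in the results below was not tested, and each difference is therefore given with all lines and without C5N and MSCP1.

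**Figure D1:**
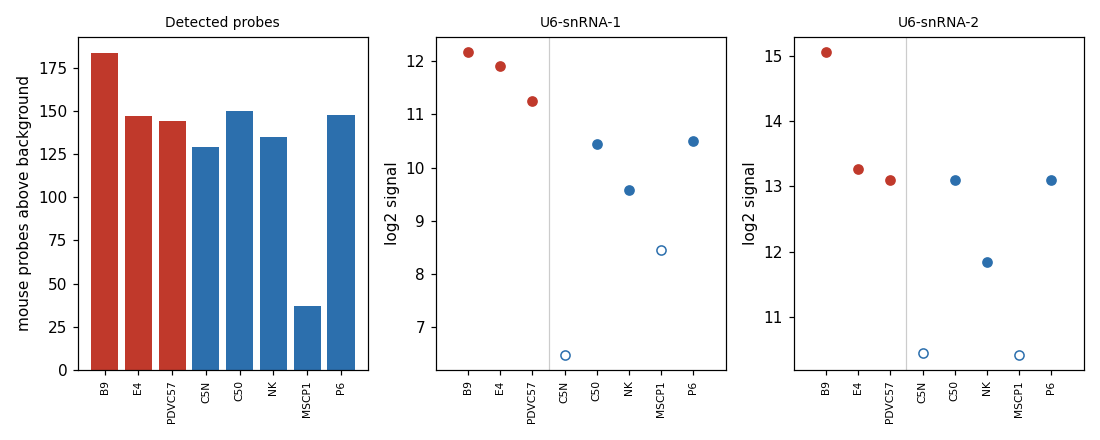
Number of mouse probes at least 1 log2 unit over the negative controls (left, bars) and the log2 signal of the 2 U6 probes (middle and right, 1 point per array) in each squamous line, malignant in red and non-malignant in blue, with C5N and MSCP1 as open points in the U6 panels. MSCP1 has 37 such probes and the other lines 129 or more, and the U6-snRNA-1 signal of each malignant line is above that of each non-malignant line.

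No miRNA passed the test between malignant and non-malignant squamous lines. limma, fitted over all 13 lines of the panel with Benjamini-Hochberg adjustment over 576 mouse probes, called 0 probes higher and 0 lower (0% each), and 0.844 was the smallest adjusted p. The unadjusted p was under 0.05 for 15 probes higher (2.60%) and 11 lower (1.91%) in the malignant lines. Without C5N and MSCP1 the count of calls was again 0 in each direction, the smallest adjusted p was 0.203, and 7 probes (1.22%) were higher and 16 (2.78%) lower at the unadjusted level. The 6 lower probes with the smallest p (miR-653, miR-470*, miR-463*, miR-412, miR-224 and miR-203*) were over background on at most 1 of the 8 arrays. Of the 6 higher ones, miR-29a, miR-29b and miR-222 were bright, and miR-190b, miR-93* and miR-698 were over background on at most 1. What follows is therefore a description of levels and differences, with the limma 95% interval of each difference where it is named, not adjusted for the number of probes.

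Among the 153 probes over background on 3 or more of the 8 arrays, 134 were higher and 19 lower in the malignant lines, with a median difference of 0.47. Without C5N and MSCP1 the split was 85 and 68 and the median 0.061. Leaving out C5N alone gave a median of 0.40 and MSCP1 alone 0.26. The scaling moved the split as well, to 94 higher and 59 lower after quantile normalization and 69 higher and 84 lower after cyclic loess, with medians of 0.10 and -0.052. Of the 153 probes, 59 had the opposite sign once both arrays were left out. Over all 576 probes, most of them near background, the median difference was 0.030 with all lines and 0.011 without both. Among them the malignant lines lay above every non-malignant line in 15 (2.60%) and below every one in 13 (2.26%), and without both in 25 (4.34%) and 30 (5.21%). In 8 of the 153 (5.23%) all 3 malignant lines lay above all 5 non-malignant lines, and in 0 of them below. Those 8 were miR-29a, miR-19b, miR-106b, miR-182, let-7e, miR-207, miR-685 and miR-691. Without C5N and MSCP1 the malignant lines were above in 9 probes (5.88%) and below in 5 (3.27%), and these 5 were miR-34a and the miR-200 members other than miR-141.

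**Figure D2:**
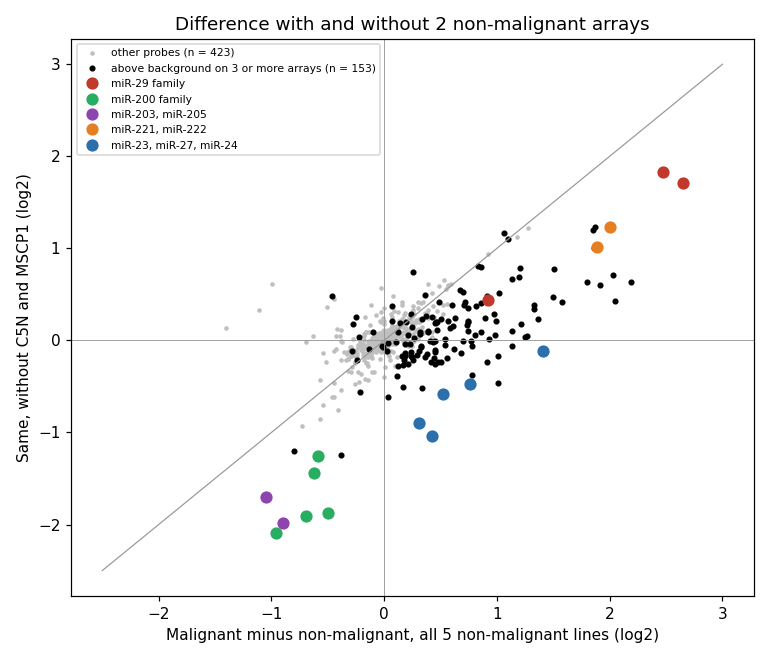
Difference between malignant and non-malignant squamous lines of each of the 576 mouse probes on the log2 scale with all 5 non-malignant lines (x axis) and without C5N and MSCP1 (y axis), with the miRNA families named in the legend in colour and the identity line in grey. Most of the 153 probes over background lie right of 0 on the x axis and around 0 on the y axis, the miR-29 family lies right of and above 0 on both, the miR-200 family is below 0 on both, and the miR-23, miR-27 and miR-24 probes lie right of 0 on the x axis and below 0 on the y axis.

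The miR-200 family was lower in the malignant lines in 5 of its 5 members, with a median difference of -0.62 over all lines and -1.87 without C5N and MSCP1, while 19 of the 153 probes over background were lower over all lines. With 1 line left out the family median was -0.34 without E4, -0.37 without C50 and without NK, -0.48 without B9, -0.99 without PDVC57, -1.06 without C5N and -1.03 without MSCP1. The family kept a negative median under quantile normalization (-0.98) and cyclic loess (-0.96). miR-200c stood at 6.83 in B9, 7.21 in E4 and 9.37 in PDVC57, against 7.10, 10.39, 9.43, 7.04 and 9.88 in C5N, C50, NK, MSCP1 and P6. B9 and E4 were near background, PDVC57 was just under NK, and C5N and MSCP1 were below E4. Its difference was -0.96 over all lines (95% interval -2.58 to 0.66) and -2.09 without both (-3.25 to -0.94), with an adjusted p of 0.844 and 0.213 in limma. miR-200b, from the other cluster with the same seed, read 8.08, 8.05 and 9.52 in the malignant lines B9, E4 and PDVC57, against 6.81, 10.87, 10.21, 7.18 and 10.19 in the non-malignant lines C5N, C50, NK, MSCP1 and P6. It lay lower by 1.87 without both lines (interval of the difference -2.78 to -0.97), and at -0.50 over all lines (-2.26 to 1.25), or -0.046 without C50.

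miR-141, which shares the transcript of miR-200c, was 7.66, 8.02 and 10.49 in B9, E4 and PDVC57, against 7.43, 11.18, 9.96, 7.78 and 10.74 in C5N, C50, NK, MSCP1 and P6. PDVC57 lay between NK and P6, and so miR-141 overlapped even without C5N and MSCP1, where its difference was -1.91 (-3.30 to -0.51). miR-200a read 8.20, 7.60 and 8.93 in the malignant lines, against 8.05, 9.89, 9.88, 7.22 and 9.29 in the non-malignant lines, and miR-429 read 7.32, 6.92 and 7.51, against 6.76, 8.57, 8.94, 6.93 and 8.01. Their differences were -0.62 and -0.59 over all lines and -1.44 and -1.26 without both, with an adjusted p of 0.203 in limma for each in that second fit. With E4 left out as well, in a fit chosen after seeing the data, the differences were -1.12 and -1.09. The adjusted p in limma was then 0.890 for each. PDVC57 was the highest malignant line for all 5 members. The mean over the family was 7.62, 7.56 and 9.16 in B9, E4 and PDVC57, against 7.23, 10.18, 9.68, 7.23 and 9.62 in C5N, C50, NK, MSCP1 and P6. The 2 outlying non-malignant arrays thus lay under all malignant arrays for the family, and the other 3 above them. The spike-in mean split the arrays in a like way, with B9, E4, C5N and MSCP1 at 7.67 to 7.97 and PDVC57, C50, NK and P6 at 8.78 to 9.04, and its part in the miR-200 values was not tested.

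**Figure D3:**
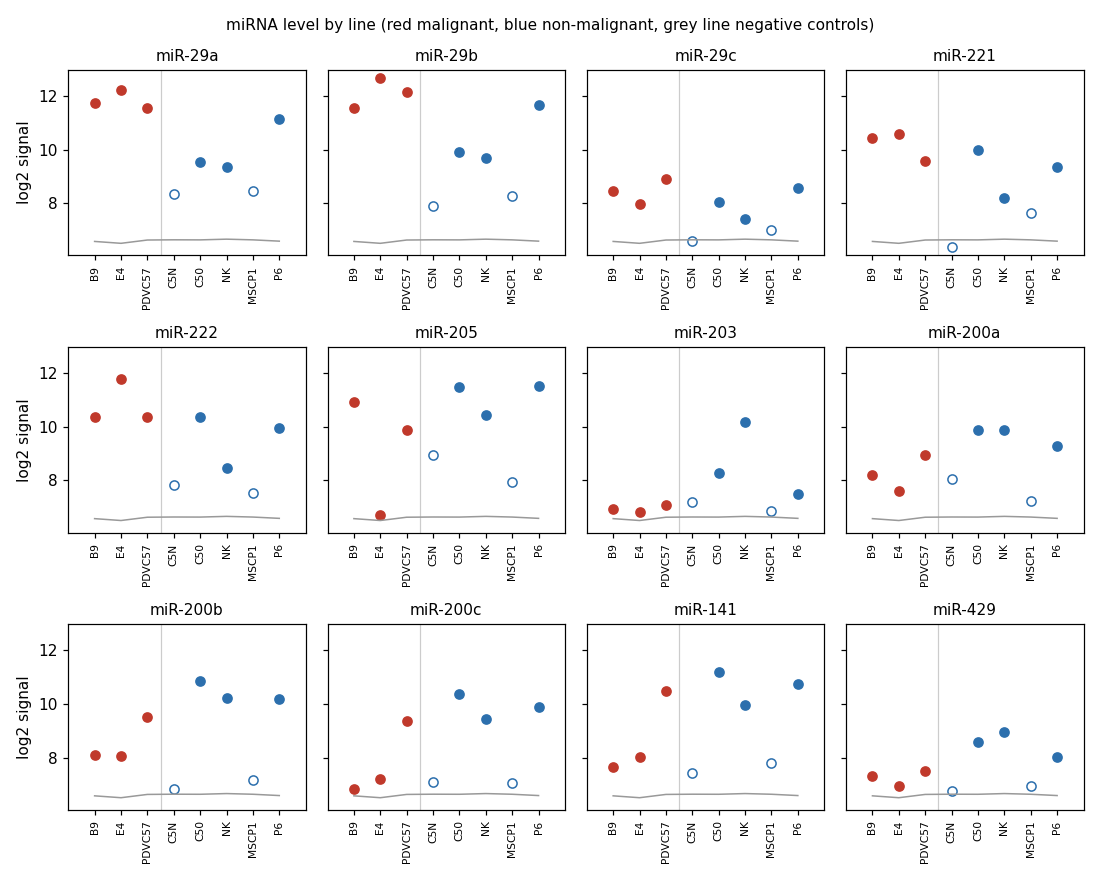
Level (log2 signal, y axis) of 12 miRNAs in the 3 malignant (red) and 5 non-malignant (blue) squamous lines, 1 array per line, with C5N and MSCP1 as open points and the median of the negative control probes as a grey line. The malignant lines are above every non-malignant line for miR-29a, miR-205 is at background in E4 alone, and the open points sit at the low end of the non-malignant lines for most miRNAs.

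The title miRNAs were lower in the malignant lines by the mean but overlapped with the non-malignant lines. miR-203 read 6.94, 6.80 and 7.10 in B9, E4 and PDVC57, against 7.20, 8.27, 10.16, 6.84 and 7.50 in C5N, C50, NK, MSCP1 and P6. It was under 1 log2 unit over the negative controls in all lines except C50 and NK. Its difference was -1.05 (-2.22 to 0.12) over all lines and -1.70 without both (-2.76 to -0.63), and without NK it was -0.51. The other arm, miR-203*, read 6.63, 6.64 and 6.66 in the malignant lines, against 7.33, 6.83, 7.68, 6.80 and 6.81 in the non-malignant lines, with NK again highest. The malignant lines lay below all the others for miR-203*, at the level of the negative controls. miR-205 read 10.94 in B9, 6.69 in E4 and 9.87 in PDVC57, against 8.93, 11.48, 10.45, 7.93 and 11.51 in C5N, C50, NK, MSCP1 and P6. E4 was the only squamous line at background for it, while B9 and PDVC57 were above C5N and MSCP1. The difference was -0.89 over all lines (-2.90 to 1.11) and -1.98 without both (-3.77 to -0.19), and without E4 it was 0.34, of the opposite sign. The limma adjusted p of miR-203 was 0.423 without both and that of miR-205 was 0.999.

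The other epithelial cluster, that of miR-182, was not lower with miR-200. Its 3 members were higher over all lines, like most probes over background, with a median of 0.81, and at a median of 0.061 without both. miR-182, which lies in a cluster active in sensory and epithelial cells, read 9.58, 9.42 and 9.42 in B9, E4 and PDVC57, against 7.65, 9.04, 9.35, 7.27 and 9.17 in C5N, C50, NK, MSCP1 and P6. The malignant lines did not overlap the others, but NK was only just below them. Its difference was 0.97 (-0.27 to 2.22) and 0.28 without both (-0.78 to 1.34). miR-183 differed by 0.81 and 0.061, and miR-96 by 0.54 with all lines, -0.054 without both and -0.065 after cyclic loess.

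miR-29b and miR-29a had the 2 highest differences among the probes over background. miR-29a read 11.74, 12.21 and 11.56 in B9, E4 and PDVC57, against 8.34, 9.52, 9.37, 8.45 and 11.13 in C5N, C50, NK, MSCP1 and P6. All malignant lines were above all non-malignant lines, and papilloma line P6 came nearest. The difference was 2.48 (0.89 to 4.06, adjusted p = 0.844 in limma) over all lines and 1.83 (0.36 to 3.30, adjusted p = 0.999) without both, 2.22 without C5N and 2.25 without MSCP1. miR-29b read 11.54, 12.67 and 12.16 in the malignant lines, against 7.88, 9.91, 9.69, 8.26 and 11.65 in the non-malignant lines, so that P6 was above B9. Its difference was 2.65 (0.92 to 4.37) and 1.71 without both (0.32 to 3.10). miR-29c was dimmer, at 8.46, 7.98 and 8.90 in B9, E4 and PDVC57, against 6.60, 8.06, 7.40, 7.00 and 8.57 in C5N, C50, NK, MSCP1 and P6. C50 and P6 were above E4 for it, and its difference was 0.92 (-0.15 to 1.99) and 0.44 without both (-0.61 to 1.48). After quantile normalization and cyclic loess the family median was 1.38 and 0.94. The star arm of miR-29a, over background on 3 of 8 arrays, differed by 0.36 and by 0.49 without both, against 2.48 and 1.83 for the arm named miR-29a.

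miR-221 and miR-222, which repress the cell cycle inhibitor p27, were higher in the malignant lines by a median of 1.94 and, without both, 1.12. miR-222 read 10.35, 11.79 and 10.37 in B9, E4 and PDVC57, against 7.84, 10.36, 8.47, 7.53 and 9.97 in C5N, C50, NK, MSCP1 and P6. E4 stood highest, and C50 was level with B9 and PDVC57. The difference was 2.00 (0.40 to 3.60) and 1.23 without both (-0.23 to 2.70). miR-221 read 10.43, 10.57 and 9.59, against 6.37, 9.98, 8.20, 7.62 and 9.36, so that C50 was above PDVC57 and C5N below its own negative controls. Its difference was 1.89 (0.31 to 3.47) and 1.01 without both (-0.26 to 2.29).

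The 13 members of the miR-17 cluster and its paralogs form a group driven by Myc that promotes proliferation. Of them 12 were higher, beside 134 of the 153 probes over background. In 3 members, miR-19b, miR-106b and the dim miR-18b, all malignant lines lay above all non-malignant lines. Beside this stand 15 of all 576 probes (2.60%) and 8 of the 153 over background (5.23%), and 10 of the 13 members were over background. The median difference was 0.74 and, without both, 0.34 (11 of 13 higher). The medians after quantile normalization and cyclic loess were 0.27 and 0.20. miR-19b was the brightest member, at 11.02, 11.00 and 10.90 in B9, E4 and PDVC57, against 7.68, 9.72, 10.18, 7.97 and 10.02 in C5N, C50, NK, MSCP1 and P6. The 3 malignant lines lay close together and above NK, the next line. Its difference was 1.86 (0.32 to 3.40) and 1.00 without both (-0.23 to 2.23). miR-106b, from a paralogous cluster, read 10.64, 10.31 and 10.54, against 7.07, 10.04, 10.29, 7.30 and 9.90, with E4 only just above NK. Its difference was 1.58 over all lines (-0.39 to 3.54) and 0.42 without both (-1.23 to 2.07).

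The let-7 family, which represses Ras and Hmga2, was higher in 9 of 9 members over all lines, as were 134 of the 153 probes over background, with a median of 1.01, and in 4 of 9 without both with a median of -0.039; the median was 0.18 after quantile normalization and -0.11 after cyclic loess. let-7e read 12.78, 12.39 and 12.60 in B9, E4 and PDVC57, against 8.00, 11.92, 12.37, 9.41 and 11.68 in C5N, C50, NK, MSCP1 and P6. The malignant lines were above the others, with E4 only just above NK. Its difference was 1.91 over all lines (-0.22 to 4.05), 0.60 without both (-0.96 to 2.16) and -0.11 after cyclic loess. let-7a read 10.26, 10.06 and 9.95 in the malignant lines, against 6.99, 10.06, 10.31, 7.34 and 10.08 in the non-malignant lines, with NK highest of all 8. It differed by 1.13 over all lines (-0.80 to 3.07) and by -0.061 without both (-1.59 to 1.47), and C50, NK and P6 lay among or above the malignant lines.

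The miRNAs with a known part in skin carcinogenesis did not move together, and 7 of the 15 were higher and 8 lower, 6 and 9 without both. miR-21 read 12.50, 13.57 and 13.16 in B9, E4 and PDVC57, against 7.01, 13.01, 11.45, 10.21 and 13.47 in C5N, C50, NK, MSCP1 and P6. P6 and C50 reached the level of the malignant lines. Its difference was 2.04 over all lines (-0.80 to 4.89), 0.43 without both (-1.77 to 2.63) and 1.04 without C5N alone, and it was among the 6 probes that moved most when both arrays were left out. miR-31, abundant in squamous cancers, read 12.01, 11.27 and 11.26, against 9.33, 11.53, 10.44, 8.19 and 11.43. It differed by 1.33 (-0.68 to 3.34), by 0.38 without both (-1.45 to 2.22) and by -0.057 after cyclic loess.

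miR-125b-5p, which in mouse skin sustains stem cells, read 12.60, 9.96 and 12.18 in B9, E4 and PDVC57, against 7.57, 9.09, 10.11, 9.92 and 11.96 in C5N, C50, NK, MSCP1 and P6. E4 was the low malignant line and P6 the high non-malignant line, and MSCP1 was not lower than C50 here. Its difference was 1.85 (-0.33 to 4.04) and 1.20 without both (-0.98 to 3.37). miR-193 read 8.77, 11.15 and 10.14 in the malignant lines, against 6.71, 7.73, 8.38, 7.70 and 10.24 in the non-malignant lines, with P6 between E4 and PDVC57. It differed by 1.87 (0.24 to 3.49) and 1.23 without both (-0.39 to 2.86). The difference of miR-365 was 1.06 over all lines (-0.090 to 2.22) and 1.17 without both (-0.089 to 2.43), and 0.66 without E4. It read 8.13, 9.44 and 8.33 in the malignant lines, against 8.34, 7.04, 7.17, 7.11 and 8.18 in the non-malignant lines. E4 stood alone, C5N was level with PDVC57, and P6 was above B9. miR-22, with roles in cell senescence, read 9.86, 12.25 and 10.28 in B9, E4 and PDVC57, against 6.59, 10.32, 9.68, 7.94 and 10.48 in C5N, C50, NK, MSCP1 and P6. E4 alone was above P6, and the difference was 1.80 over all lines (-0.37 to 3.97) and 0.64 without both (-1.27 to 2.54), and 1.07 without E4.

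miR-34a, which p53 induces, read 9.15, 8.96 and 9.03 in the malignant lines, against 7.38, 9.28, 9.31, 7.48 and 9.26 in the non-malignant lines. NK, the p53 null line, was level with C50 and P6 for it. C50, NK and P6 were above the malignant lines, and C5N and MSCP1 below them.

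miR-146a and miR-146b, which damp NF-kappaB signalling, were higher in the malignant lines by mean with and without C5N and MSCP1. miR-146a read 7.71, 8.02 and 7.44 in B9, E4 and PDVC57, against 6.61, 6.48, 6.63, 7.10 and 7.62 in C5N, C50, NK, MSCP1 and P6. The 3 immortalized keratinocyte lines were at background, and P6 lay between PDVC57 and B9. PDVC57 and MSCP1 were also less than 1 log2 unit over their negative controls, which had medians of 6.62 and 6.63. The difference was 0.83 (0.11 to 1.56) and 0.81 without both (-0.037 to 1.66). miR-146b read 7.57, 7.98 and 7.63, against 6.77, 6.73, 6.77, 6.95 and 8.05, with P6 the highest line of all 8. It differed by 0.67 (-0.071 to 1.42) and 0.54 without both (-0.32 to 1.41). The third miRNA of the inflammatory list, miR-155, was between 6.79 and 7.32 in all 8 lines.

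**Figure D4:**
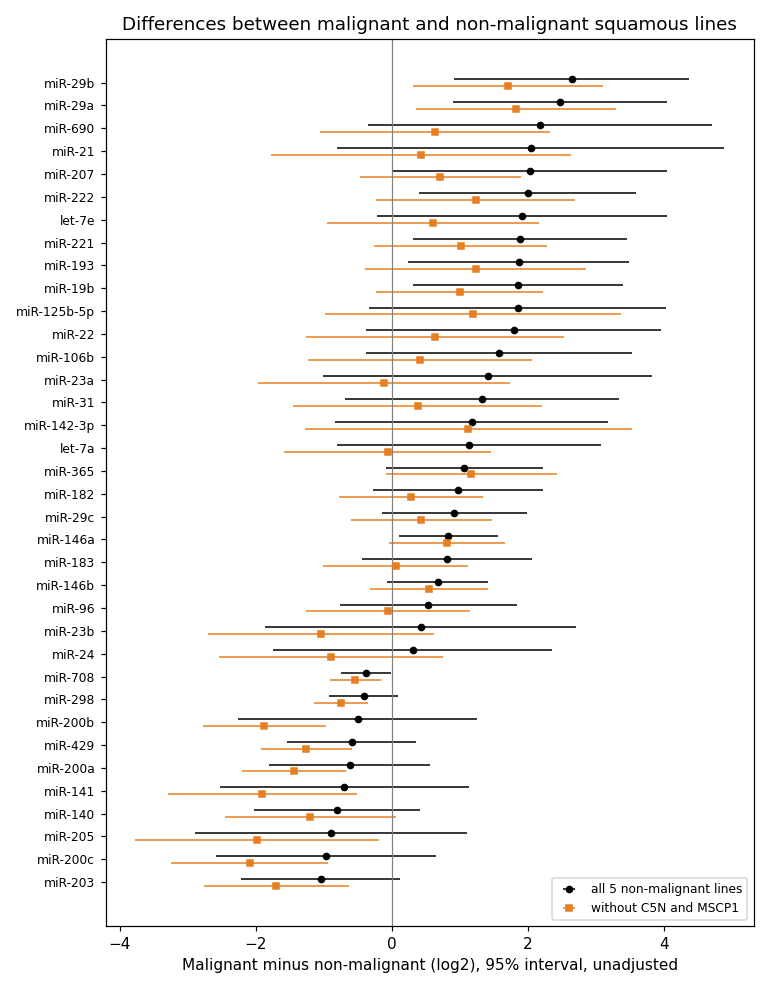
Difference between malignant and non-malignant squamous lines on the log2 scale (x axis) for 36 miRNAs, with its unadjusted 95% interval from limma, over all 5 non-malignant lines (black circles) and without C5N and MSCP1 (orange squares). The black points lie right of the orange ones for most miRNAs. The orange intervals of the 5 miR-200 members and of miR-203, miR-205, miR-298 and miR-708 lie left of 0, while those of miR-29a and miR-29b lie right of it.

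Families of keratinocyte miRNAs that are bright in both groups had opposite signs with and without the 2 arrays. The 5 members of the miR-23, miR-27 and miR-24 clusters were all higher over all lines (median 0.52) and all lower without both (median -0.59). The median was also negative after quantile normalization (-0.31) and cyclic loess (-0.91), where miR-23a differed by 0.62 and 0.098. miR-23a read 11.26, 12.08 and 10.77 in B9, E4 and PDVC57, against 7.39, 12.31, 11.40, 7.93 and 10.74 in C5N, C50, NK, MSCP1 and P6. miR-23b read 12.30, 9.60 and 11.02 in the malignant lines, against 8.00, 12.48, 12.54, 8.70 and 11.02 in the non-malignant lines, so the paralogs parted in E4, where miR-23a was above and miR-23b below the other malignant lines. The difference of miR-23a was 1.41 over all lines (-1.01 to 3.83) and -0.12 without both (-1.96 to 1.73), that of miR-23b 0.43 (-1.86 to 2.71) and -1.04 (-2.71 to 0.63). miR-24 read 12.12, 9.62 and 10.97, against 8.69, 12.44, 12.07, 8.90 and 10.90, and differed by 0.31 (-1.75 to 2.36) and -0.90 (-2.55 to 0.75).

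The miR-30 family was higher in 5 of 5 members over all lines (median 0.70, and -0.052 after cyclic loess) and lower in 5 of 5 without both (-0.12). The 4 members of the miR-26 and miR-101 list had medians of 0.75 and 0.16, and the 6 of the miR-15 and miR-16 list 0.43 (-0.022 after cyclic loess) and -0.021. The list of miR-99, miR-100 and miR-125 had medians of 0.48 and -0.23, and that of the Hox clusters -0.0087 and -0.13. In none of the lists did a probe pass the limma test, with all lines or without both.

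**Figure D5:**
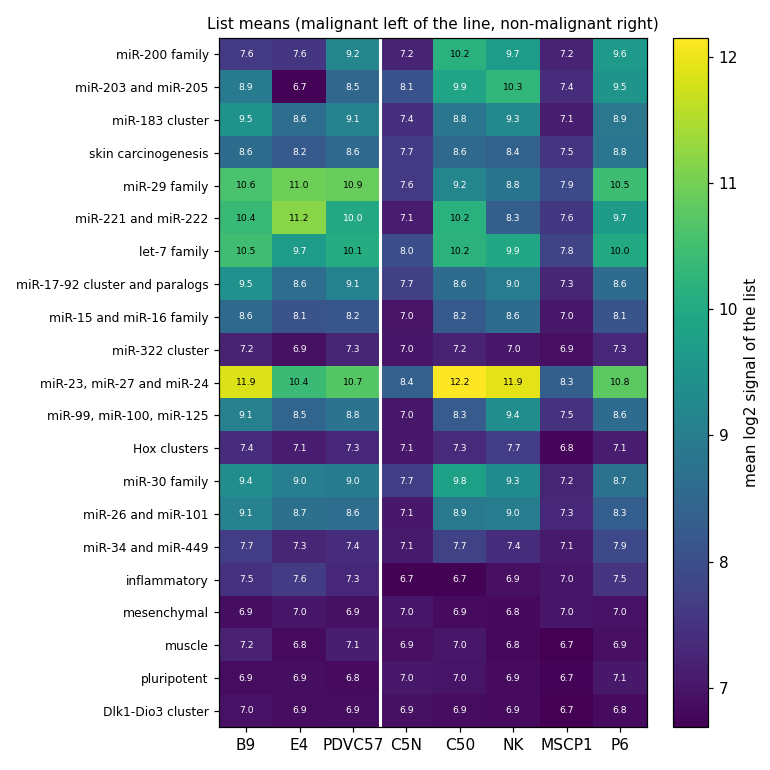
Mean log2 signal over the members of each miRNA list that has a member over background (rows) in each squamous line (columns), malignant lines left of the white line and non-malignant lines right of it, with the value in each cell. Columns C5N and MSCP1 are low in most bright lists, B9 and E4 are low for the miR-200 family, and E4 is the lowest line for miR-203 and miR-205.

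The brightest probes of both groups included small RNAs whose place in the miRNA catalogue has been questioned. miR-690 read 15.18, 12.81 and 13.37 in B9, E4 and PDVC57, against 7.65, 13.38, 12.90, 10.90 and 13.19 in C5N, C50, NK, MSCP1 and P6. B9 was the highest line, E4 lay below NK, and the difference was 2.19 over all lines (-0.34 to 4.72), 0.63 without both (-1.06 to 2.33) and -0.26 after cyclic loess. miR-720, which derives from a tRNA, read 15.13, 13.44 and 13.37 in the malignant lines, against 10.53, 13.47, 14.25, 11.31 and 13.54 in the non-malignant lines. miR-207 read 11.44, 11.80 and 12.05, against 6.68, 11.35, 11.18, 8.84 and 10.61, and did not overlap, with a difference of 2.03 (0.0044 to 4.05) and of 0.72 without both (-0.47 to 1.90).

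Of the 153 probes over background, 19 were lower with all lines, and miR-140 was the lowest of them after miR-200c and miR-205. miR-140, best known from cartilage, read 7.50, 7.06 and 7.32 in B9, E4 and PDVC57, against 8.12, 8.88, 9.22, 6.88 and 7.37 in C5N, C50, NK, MSCP1 and P6. The 3 immortalized keratinocyte lines were above all malignant lines and the papilloma lines were not. Its difference was -0.80 (-2.02 to 0.42) and -1.20 without both (-2.46 to 0.065), and -0.52 without NK. The other arm of the same hairpin, miR-140*, read 7.93, 7.69 and 7.68 in the malignant lines, against 6.86, 9.62, 10.05, 6.86 and 7.37 in the non-malignant lines, so that C50 and NK were again the high lines while C5N was not. miR-298 and miR-708 were not among the 153 probes and stood near background in most lines of both groups. miR-708 was over background on 0 arrays and miR-298 in NK alone. miR-298 read 6.67, 6.53 and 6.79, against 6.55, 7.56, 7.73, 6.58 and 6.95, with a difference of -0.41 (-0.92 to 0.10) and -0.75 without both (-1.15 to -0.35, adjusted p = 0.203 in limma). miR-708 read 6.99, 6.70 and 6.78, against 7.04, 7.55, 7.45, 6.89 and 7.08, with a difference of -0.38 (-0.75 to -0.0080) and -0.54 without both (-0.91 to -0.16).

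Some signals belonged to 1 malignant line. In E4 both arms of the miR-142 hairpin, a miRNA of blood cells, were high: miR-142-3p was 6.72, 10.01 and 6.84 in B9, E4 and PDVC57, against 6.54 to 6.82 in the 5 non-malignant lines, and miR-142-5p was 9.33 in E4 and at most 6.76 in the other 7 lines. The difference of miR-142-3p, 1.17 (-0.84 to 3.19), was 1.13 without C5N and MSCP1 and 0.095 without E4. The other 4 markers of the blood list, miR-223, miR-144, miR-451 and miR-150, read 6.67, 6.54, 6.50 and 7.11 in E4, which is near its negative controls. H11, the spindle line of the same tumour, read 11.08 for miR-142-3p and 9.86 for miR-142-5p, and spindle line D3, from the tumour of B9, read 9.89 and 8.91. E4 was also alone in reading 9.02 for miR-200a*, against at most 6.95 in the other 7 lines, while miR-200a itself was lowest in E4 among the malignant lines. Its miR-132 was 9.35, against at most 7.60 in the other 7 squamous lines.

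B9 read 10.14 for miR-9*, the partner strand of a neural miRNA, and at most 7.57 was found in the other 7 lines. miR-9 itself was over background on 0 of the squamous arrays. miR-801 was 11.45 in B9, against 8.94 in NK, the next line. In PDVC57 the probe with the largest gap over the other lines was miR-706, at 10.74 against 9.92. Among the non-malignant lines, NK was highest for miR-99a at 8.63 and for miR-100 at 8.89 as well as for miR-203. MSCP1 was highest for miR-141* at 8.63. On C5N, miR-671-3p, miR-19a* and let-7g* read 14.49, 14.43 and 13.37, and the next line for all 3 was E4, at 7.34, 8.05 and 7.44. Of the 20 miRNAs on which C5N stood farthest above the median of the other 7 squamous lines, the second highest line was E4 in 10, B9 in 7, C50 in 2 and NK in 1. How often each line is the highest of those 7 over all probes was not counted. B9 had the largest spread of probe values, an SD of 1.42, and the most probes over background, 184. The count alone therefore does not show that C5N was like E4 or B9.

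Most markers of other cell types stayed near background, apart from miR-142 in E4 and the probes named here. In the mesenchymal list 1 of 5 measured probes was over background on at least 3 arrays, miR-214, at 8.13, 9.27 and 8.17 in B9, E4 and PDVC57, against 7.44, 7.79, 7.87, 7.71 and 8.31 in C5N, C50, NK, MSCP1 and P6. miR-143 and miR-145, the defining miRNAs of that list, were between 6.20 and 6.80 in all 8 lines. The mean over the mesenchymal list was 6.88, 7.02 and 6.93 in the malignant lines and 6.83 to 7.02 in the non-malignant lines. The mean over the blood list was 6.78, 7.68 and 6.76, against 6.64 to 6.82, with the high value in E4. The endothelial list had means of 6.67 to 6.79, against 6.57 to 6.77, and the muscle, neural and pluripotent lists had means of 6.60 to 7.19, against 6.63 to 7.07. In the muscle list miR-1 was over background on 4 arrays, at 8.20, 7.32 and 8.19 in B9, E4 and PDVC57, against 6.72, 7.98, 7.28, 6.87 and 7.83 in C5N, C50, NK, MSCP1 and P6. In the pluripotent list miR-290-5p was over background on 7 arrays, at 8.81, 8.43 and 9.18, against 8.12, 9.39, 8.90, 7.48 and 9.96. The liver marker miR-122 was 6.47, 6.89 and 6.78 in the malignant lines, against 6.71 to 6.87 in C50, NK, MSCP1 and P6 and 7.99 in C5N. Among the markers of squamous epithelium, miR-205 was clearly over background in 7 of the 8 lines, all but E4. miR-200a and miR-141 were over background on 7 arrays, miR-200b on 6, miR-200c on 4 and miR-203 on 2, and miR-429 was dim in most lines. These markers thus did not settle the keratinocyte origin of each line.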

How the data were processed

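miRNA arrays of 13 mouse skin cell lines (14 arrays, with line A5 measured again) were used as log2 signals, which the authors deposited already processed. Values between 5.93 and 15.2 were taken to be log2. Normalization and background correction were not given in the sources used here. Centring and any offset are therefore unknown. Per the labels' protocols, a Qiagen kit gave the RNA and an Exiqon kit the Cy3 label. Of 1271 probes, 576 name a mouse miRNA (568 names). limma 3.58.1 in R 4.3.3 (intensity trend, Benjamini-Hochberg adjustment over 576 probes, adjusted p of 0.05) was fitted over the 13 lines, with the 2 A5 arrays averaged. Over background means at least 1 log2 unit above the median of 8 negative control probes. Line, phenotype and origin came from the labels, which give 1 array per line, so the number of lines limits the precision.

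The members and lists were chosen with earlier results of these data known. Named were the probes with the smallest p, the largest differences over background, the largest moves without C5N and MSCP1, the largest gaps of 1 line over the others, the brightest of each group, and those with the smallest p or highest signal in each list. Where several probes name 1 miRNA, the brightest was taken. The 27 lists covered miRNA families and markers of other cell types, and 2 list members, miR-208a and miR-128, did not match by name. miR-34a, miR-140*, miR-214, miR-132 and miR-720 are given as levels. Sequences were matched by name to RefSeq. The limma step was checked on data with known answers. Alternatives covered the fit, the scaling, the filter, array weights, hybrid origin, tumour of origin and each line left out. A fit without C5N, MSCP1 and E4 and a quantile normalization without C5N and MSCP1 were chosen after seeing the data.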

Additional observations from a re-analysis of the deposited data

Results flagged for a closer look

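Of 38 probes tested for a line far from the other non-malignant lines by Dixon's ratio, 1 stood out, and chance flags about 1 in 20 groups. miR-146b in P6 was 8.05, with MSCP1 next at 6.95. Its gap to MSCP1 was 0.834 of the group's range, over the 95% critical value of 0.71. The ratio takes 1 extreme line at a time, so C5N and MSCP1 hide each other where both are low. On U6-snRNA-2 they read 10.45 and 10.42, against 13.10, 11.85 and 13.09 in C50, NK and P6, without a flag. The count of flags therefore does not show that the arrays of C5N and MSCP1 were like the others.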

How the results depend on the processing

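limma called 0 probes in each direction over all lines and in each of 23 alternatives, with smallest adjusted p-values from 0.151 to 1.00 and, at an unadjusted p under 0.05, from 5 to 24 probes higher and 0 to 20 lower. When 1 line was left out in turn, 0 were called, and 12 to 24 were higher and 4 to 15 lower at the unadjusted level. No paired analysis was made, since the labels match no malignant squamous line to a non-malignant line. Of 36 miRNAs with a difference in the report, 26 kept their sign in every alternative run. Several runs could not change a sign, since they leave the difference itself as it was. These were the fit to the squamous lines alone, no intensity trend, and robust empirical Bayes. The filter on dim probes, the probes of any species and the brightest probe per name were of the same kind. The miRNAs were also named partly for large differences, so the count of 26 is not a measure of stability. The differences of the other 10 miRNAs that had the opposite sign were as follows, and the cause was not tested. Without C5N and MSCP1 they were -0.061 for let-7a, -0.12 for miR-23a, -1.04 for miR-23b, -0.90 for miR-24 and -0.054 for miR-96. Without C5N, MSCP1 and E4 they were -0.046 for let-7a, -0.088 for miR-22, -0.47 for miR-23a, -0.35 for miR-23b and -0.26 for miR-24. With array weights they were -0.013 for miR-23a, -0.42 for miR-23b and -0.36 for miR-24. After quantile normalization they were -0.33 for miR-23b and -0.39 for miR-24, and when it was run without C5N and MSCP1 -0.25 for let-7a, -0.35 for miR-23a, -1.12 for miR-23b, -0.85 for miR-24 and -0.027 for miR-96. After cyclic loess they were -0.11 for let-7e, -1.14 for miR-23b, -1.23 for miR-24, -0.057 for miR-31, -0.065 for miR-96 and -0.26 for miR-690. With 1 line left out they ran from -0.24 to 1.11 for miR-23b, from -0.30 to 0.95 for miR-24 and from -1.78 to 0.34 for miR-205. Among 602 list medians, 10 moved by more than 1 SD of the list mean between the non-malignant lines. That SD includes C5N and MSCP1, so it is a wide measure and the count does not show that the lists are stable. By it, the move of the miR-200 median from -0.62 over all lines to -1.87 without C5N and MSCP1 was not counted. Levels near the negative controls understate a difference.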
